A study of Mus musculus with 20 samples.

Results

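The genes described here encode nuclear subunits of mitochondrial complex I, NADH:ubiquinone oxidoreductase. The list holds 35 gene symbols, and each was looked up among the 34760 transcript clusters of the array, of which 21640 carry exactly 1 gene symbol. All 35 symbols were found. For the 5 genes with a second cluster (Ndufa11, Ndufab1, Ndufb11, Ndufc1 and Ndufs3), the cluster with the highest mean signal was used. Left ventricular RNA came from 20 male C57BL/6 mice, aged 2 months by the labels, with 1 Affymetrix Mouse Gene ST array per mouse. Sham mice (n = 4) had saline and placebo, and FA-sham mice (n = 4) had saline and folic acid (FA). DOXO mice (n = 6) had doxorubicin, an anthracycline that damages the heart, with placebo, and FA-DOXO mice (n = 6) had doxorubicin with FA. A single intraperitoneal dose of 20 mg/kg doxorubicin was used. The FA dose was 10 mg per day, starting 7 days ahead of that injection, and the hearts were taken at day 10.

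Complex I takes electrons from NADH, passes them along a chain of iron-sulfur clusters to ubiquinone and pumps protons across the inner mitochondrial membrane. Its peripheral arm has an N module, which oxidises NADH, and a Q module, which reduces ubiquinone. Its membrane arm has a proximal and a distal part, whose proton-pumping core subunits are encoded by mitochondrial DNA. The heart muscle cell is packed with mitochondria and carries these proteins at high levels. Of the 35 genes, 6 encode core subunits (Ndufv1, Ndufv2, Ndufs1, Ndufs3, Ndufs7 and Ndufs8), and the others encode accessory subunits. Ndufab1, the mitochondrial acyl carrier protein, sits in both arms, and Ndufa4 is counted today with complex IV although its name places it here.

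The arrays differed in how far their log2 signals spread around the median. The spread of each array (array SD) was used as a covariate in the comparisons below, unless stated otherwise. It ran from 0.863 to 1.501, with means of 1.27 ± 0.25 in sham, 0.957 ± 0.12 in FA-sham, 1.13 ± 0.26 in DOXO and 1.04 ± 0.19 in FA-DOXO (SD). An array SD above 1.1 was found in 3 of 4 sham, 1 of 4 FA-sham, 2 of 6 DOXO and 2 of 6 FA-DOXO mice. These 8 arrays are called wide here and the other 12 narrow. Group differences within the wide or the narrow arrays alone were fitted without the array SD. It still ran from 1.137 to 1.501 within the wide and from 0.863 to 1.031 within the narrow arrays, so these differences do not hold it fixed. The label left ventricle was checked for heart muscle only, not for side or chamber, on 16 cardiomyocyte markers. Their median log2 signal lay above the median of the array on each of the 20 arrays. That marker median ran from 10.04 to 12.94 in sham, from 7.96 to 12.11 in FA-sham, from 8.51 to 12.96 in DOXO and from 8.00 to 12.38 in FA-DOXO. Array medians of all clusters stayed between 6.23 and 6.66. The cardiomyocyte marker median averaged 12.55 on the wide and 9.40 on the narrow arrays. Myh6, one of these markers, averaged 10.91 and 7.46, with a lowest value of 6.90 on the narrow arrays, not far above the array medians. Among other cell types, the marker medians averaged 8.04 on the wide and 6.82 on the narrow arrays for endothelial cells, 7.48 and 7.36 for fibroblasts and 7.28 and 6.72 for macrophages. Those near or below the array medians ran the other way, at 6.09 and 6.42 for neutrophils, 5.84 and 6.33 for T and NK cells, 6.06 and 6.60 for adipocytes and 6.20 and 6.45 for erythroid cells. Fewer cardiomyocytes in the tissue and less of these RNAs per cell cannot be told apart in such samples. How the deposited signals were normalized is not given in the sources used here, and the part of RNA quality, hybridization and normalization in the difference between wide and narrow arrays was not tested.

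The promoters of the members were searched for the letters bound by activators of nuclear respiratory genes. A link between these letters and the signals of the members was not tested. RefSeq start sites on build GRCm38.p6 gave a window of 250 bases before and 50 after the start for 32 of the 35 genes (not for Ndufa2, Ndufb9 and Ndufs1). Both strands were read, and no match of one motif overlapped a match of another. The letters of NRF1 (GCGC, any 2 bases, GCGC) were in 8 of the 32 genes (25.0%) and in 7.0% of all 27025 genes with a window. The letters AAGATGGC of YY1 were in 7 genes (21.9%, against 3.19% of all genes), those of GABP (CCGGAAG) in 4 (12.5%, against 9.93%) and those of ERR (AAGGTCA) in 2 (6.25%, against 5.38%). Ndufs6, a zinc-binding subunit of the N module, held both the NRF1 and the YY1 letters. The 4 sequences that follow are the 250 bases before the start, 5′ to 3′ on the strand of the gene, with NRF1 matches in capitals. Ndufs6 (chr13:73328483-73328732, minus strand) and Ndufa11 (chr17:56717512-56717761, plus strand), a subunit at the middle of the membrane arm, are shown as windows with a match. Ndufb5 (chr3:32736813-32737062, plus strand), of the distal membrane arm, and Ndufv3 (chr17:31519865-31520114, plus strand), an accessory subunit of the N module, are shown because their signals followed the array SD most and least steeply.
Ndufs6: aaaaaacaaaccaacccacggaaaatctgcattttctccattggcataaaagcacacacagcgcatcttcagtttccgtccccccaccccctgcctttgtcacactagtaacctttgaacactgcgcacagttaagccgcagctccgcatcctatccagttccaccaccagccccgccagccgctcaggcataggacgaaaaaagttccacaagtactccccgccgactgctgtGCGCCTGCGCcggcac
Ndufa11: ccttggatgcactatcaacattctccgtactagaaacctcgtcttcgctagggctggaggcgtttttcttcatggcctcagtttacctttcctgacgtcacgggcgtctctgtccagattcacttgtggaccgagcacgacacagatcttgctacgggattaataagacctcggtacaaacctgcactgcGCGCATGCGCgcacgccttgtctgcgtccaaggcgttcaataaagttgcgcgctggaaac
Ndufb5: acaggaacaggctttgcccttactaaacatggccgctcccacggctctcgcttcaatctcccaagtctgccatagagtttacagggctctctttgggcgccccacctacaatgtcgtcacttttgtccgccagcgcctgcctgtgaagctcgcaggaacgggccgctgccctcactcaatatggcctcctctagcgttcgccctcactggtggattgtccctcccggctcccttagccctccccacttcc
Ndufv3: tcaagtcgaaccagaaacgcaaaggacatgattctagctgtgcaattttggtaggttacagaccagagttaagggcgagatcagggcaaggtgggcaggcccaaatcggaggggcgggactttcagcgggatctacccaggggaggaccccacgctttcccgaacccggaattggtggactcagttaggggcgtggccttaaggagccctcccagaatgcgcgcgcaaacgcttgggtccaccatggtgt
None of the 4 motifs was found in the shown bases of Ndufb5 and Ndufv3, which says only that these letters are not in this window.

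The YY1 letters lay on the strand of the gene in each of the 7 genes, between 23 and 46 bases after the start. These 7 sites are shown because the match recurs at a like distance, with the motif in capitals and up to 6 bases on each side.
Ndufa3: aagaacAAGATGGCcgggag
Ndufa9: tgggagAAGATGGCggccgc
Ndufb8: aaggtgAAGATGGCtgcc
Ndufc1: cggaacAAGATGGCgccgtc
Ndufs4: tacaggAAGATGGCggcggt
Ndufs6: accggcAAGATGGCggcggt
Ndufs7: gaggccAAGATGGCggcgct
Their positions on GRCm38.p6 are Ndufa3 chr7:3617389-3617408 (plus strand), Ndufa9 chr6:126849102-126849121 (minus strand), Ndufb8 chr19:44555393-44555410 (minus strand), Ndufc1 chr3:51408920-51408939 (minus strand), Ndufs4 chr13:114388046-114388065 (minus strand), Ndufs6 chr13:73328436-73328455 (minus strand), Ndufs7 chr10:80249467-80249486 (plus strand). A match of letters is a description of the sequence, and binding was not measured. The letters AAGATGGC also hold ATG, the letters of a start codon, and an overlap of these sites with the start of translation was not checked.

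Among the core subunits of the N module, Ndufv1, which binds the flavin that takes the electrons from NADH, was at log2 signals of 9.21, 11.55, 11.30 and 7.05 in the 4 sham mice and at 6.54, 6.80, 6.90 and 10.27 in the 4 FA-sham mice. Its lowest, median and highest values were 7.06, 8.76 and 11.79 in DOXO and 6.85, 8.15 and 10.99 in FA-DOXO. The high values in each group were those of the wide arrays, and all 4 groups overlapped. Ndufs1, the largest iron-sulfur subunit, was at 8.70, 11.46, 10.93 and 7.02 in sham and at 6.96, 6.96, 6.87 and 10.03 in FA-sham. In DOXO it ran from 7.04 over a median of 8.08 to 11.06, and in FA-DOXO from 6.91 over 7.53 to 10.57. Ndufv2, an iron-sulfur subunit beside Ndufv1, was at 12.74, 12.55, 12.49 and 10.66 in sham and at 8.34, 11.00, 9.36 and 11.75 in FA-sham. In each of the 3 genes the lowest sham mouse was the one with a narrow array and the highest FA-sham mouse the one with a wide array. Ndufv2 ran from 8.89 over 11.02 to 12.61 in DOXO and from 7.47 over 10.74 to 12.05 in FA-DOXO.

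The core subunits of the Q module were likewise highest on wide arrays in each group. Ndufs7, which carries the last iron-sulfur cluster before ubiquinone, was at 13.02, 13.08, 12.78 and 10.58 in sham and at 7.69, 10.59, 8.59 and 12.22 in FA-sham. It ran from 9.39 over a median of 11.24 to 12.84 in DOXO and from 7.69 over 11.06 to 12.65 in FA-DOXO. The range within FA-sham was wider than the distance between any pair of group means. Ndufs8, which also carries iron-sulfur clusters, was at 11.29, 11.31, 11.12 and 8.87 in sham and at 7.12, 9.32, 7.75 and 10.55 in FA-sham. Ndufs3, a core subunit without a cluster, was at 9.70, 11.43, 11.13 and 7.54 in sham and at 6.98, 7.70, 6.95 and 10.28 in FA-sham. In both genes DOXO and FA-DOXO overlapped each other and both sham groups, with means of 9.32 ± 1.31 and 8.83 ± 1.49 for Ndufs8 and of 8.97 ± 1.80 and 8.58 ± 1.58 for Ndufs3 (SD, n = 6 each).

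Over all mice, the mean log2 signal of the 35 clusters lay between 7.41 for Ndufb3 and 11.53 for Ndufc2, both of the membrane arm. Signals of different clusters rest on different probes, so this order does not rank transcript amounts. The median of the 35 genes was 10.32 ± 1.22 in sham, 8.41 ± 1.32 in FA-sham, 9.27 ± 1.26 in DOXO and 9.00 ± 1.31 in FA-DOXO (SD over mice). Within each array this median lay between the 87.5th and the 98.7th percentile of all clusters. The 37 subunit genes of complexes II to V that were measured had a median above that of complex I on every array. The distance of the complex I median below it was -1.08 ± 0.38 in sham, -0.79 ± 0.29 in FA-sham, -1.16 ± 0.16 in DOXO and -1.02 ± 0.29 in FA-DOXO on the log2 scale. These ranges overlapped among all 4 groups.

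**Figure D1:**
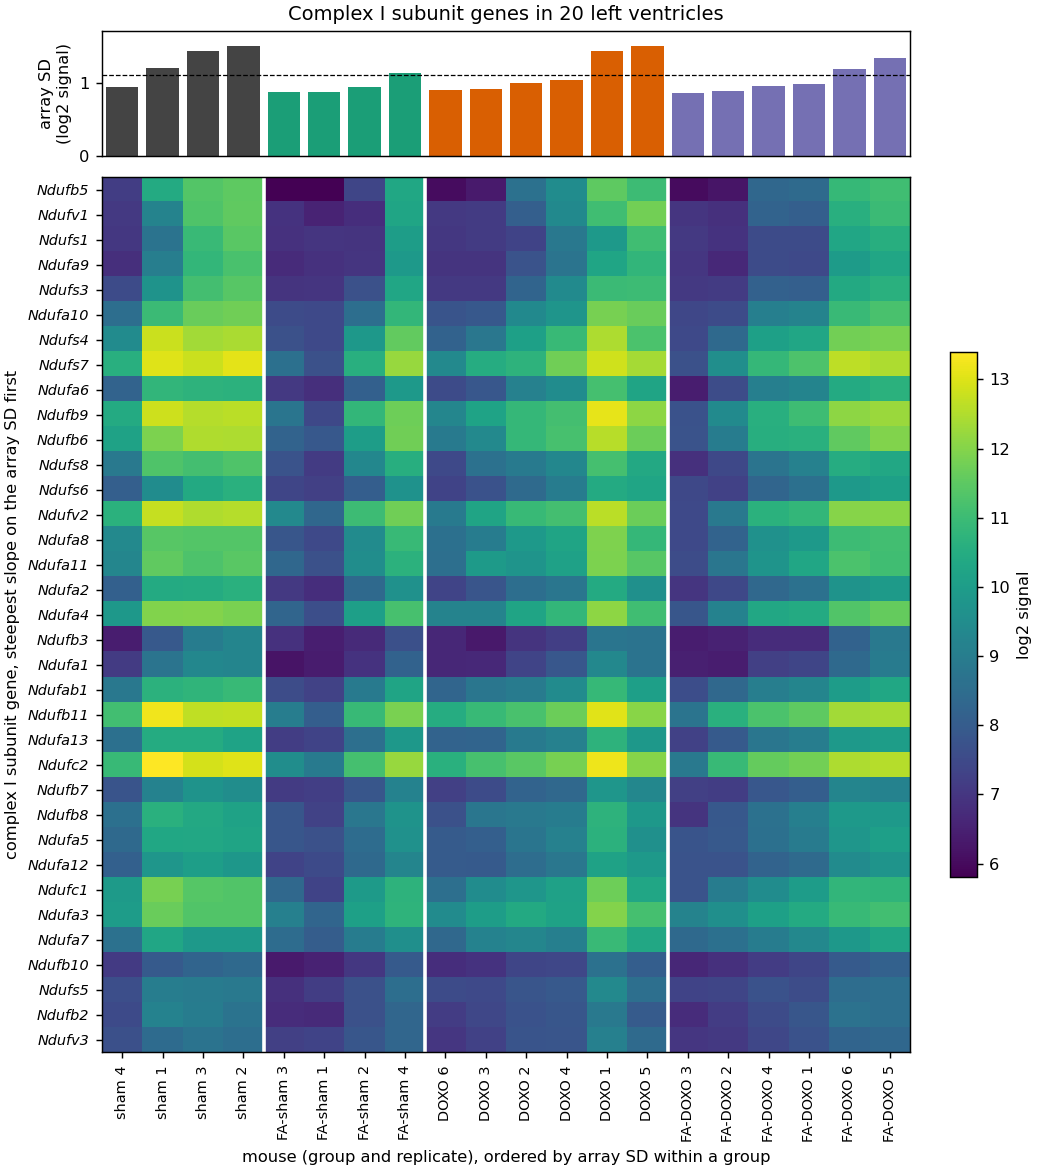
Log2 signal of the 35 complex I genes (rows, steepest slope on the array SD first) in each of the 20 mice (columns, by group and by rising array SD within a group), with the array SD of each mouse as bars above and the limit of 1.1 as a dashed line. In each group the mice with an array SD above 1.1 (3 sham, 1 FA-sham, 2 DOXO, 2 FA-DOXO) carry the brightest columns for nearly all genes.

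All 35 genes rose with the array SD when the group means were held. The slope, in log2 signal per unit of array SD, had a median of 4.73 and ran from 2.54 for Ndufv3 to 9.02 for Ndufb5. In limma, 35 of 35 genes passed an adjusted p of 0.05 and 35 of 35 an unadjusted p of 0.01 in the upward direction, against 29.8% and 27.5% of all clusters. The array SD is computed from the same signals, so the slope describes how the genes sat on the arrays and is no test of a treatment. High signals as such went with it, since 88.2% of the 2771 clusters with 1 gene symbol and a mean in the range of the members passed the adjusted threshold too, with a median slope of 3.80. The 3 steepest genes were Ndufb5 (9.02 ± 1.001, SE), Ndufv1 (8.42 ± 0.59) and Ndufs1 (7.53 ± 0.59). The 3 flattest were Ndufs5 (2.69 ± 0.36), which is a subunit on the intermembrane-space side, Ndufb2 (2.56 ± 0.49) of the distal membrane arm and Ndufv3 (2.54 ± 0.30).

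By role, the median slope was 6.57 over the 6 core subunits. It was 5.15 over the 8 genes of the N module, 5.59 over the 7 of the Q module, 4.02 over the 9 of the proximal and 4.04 over the 9 of the distal membrane arm. Each of these sets held steep and flat genes, from 2.54 to 8.42 in the N module and from 2.56 to 9.02 in the distal arm. Ndufa4 was at 4.73 ± 0.89 and Ndufab1 at 4.13 ± 0.62, close to the median of the list. A second cluster of Ndufab1 had a slope of 1.14 and correlated with the first at 0.616 over the 20 arrays, so the 2 clusters disagree. The second clusters of Ndufa11, Ndufb11, Ndufc1 and Ndufs3 correlated with the first at 0.953 to 0.995. Their slopes were 4.35, 3.95, 3.56 and 3.42, against 4.82, 4.04, 3.80 and 7.35 for the clusters used. The slope of Ndufs3 thus depends on the cluster. The Spearman correlation between slope and genomic span was 0.334 over the 35 genes and 0.199 over 2770 clusters of like signal, given as a description without a test since the points share the same arrays. Ndufs4, the longest gene with a span of 100300 bases on RefSeq, had a slope of 6.34. Ndufv1, with 5257 bases, was steeper at 8.42.

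**Figure D2:**
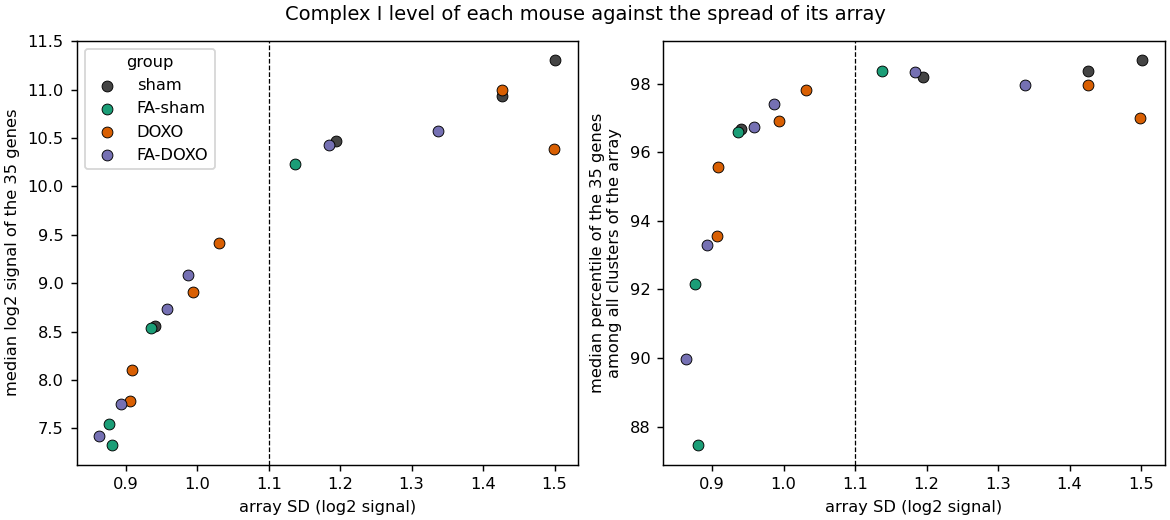
Median log2 signal of the 35 complex I genes (left) and their median percentile among all clusters of the same array (right) against the array SD, 1 point per mouse, coloured by group, with a dashed line at an array SD of 1.1. Both rise steeply over the narrow arrays (medians of 7.32 to 9.42) and level off over the wide ones (10.23 to 11.31), and mice of different groups with a like array SD lie close together, apart from a sham and a DOXO mouse at an array SD of about 1.5 (11.31 and 10.39).

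The relation was curved, as the plot of the median per mouse shows. Within the 12 narrow arrays, the slope had a median of 12.99 and ran from 3.82 for Ndufs5 to 25.19 for Ndufb5. There 35 of 35 genes passed an unadjusted p of 0.01 in limma upwards, against 9.03% of all clusters. Clusters of like signal were not counted separately there. Within the 8 wide arrays the median slope was -0.46, with 16 genes above and 19 below 0. In limma, 6 of 35 genes passed the same threshold upwards there, a share close to the 14.2% of all clusters. They were Ndufs1 (8.13 ± 1.38), Ndufv1 (7.08 ± 1.07), Ndufa9 (6.24 ± 0.94), Ndufs3 (4.74 ± 0.96), Ndufb3 (4.25 ± 0.68) and Ndufs6 (3.13 ± 0.78). The residual degrees of freedom were 3 within the wide and 7 within the narrow arrays. Of these 6 genes, Ndufs1, Ndufv1 and Ndufs3 are core subunits, and Ndufa9 is an accessory subunit of the Q module next to the ubiquinone site. With a share so close to that of all clusters, these roles are given as a description only. For 33 of 35 genes the slope was steeper among the narrow arrays, and Ndufs1 and Ndufb3 were the others, at 7.82 and 4.10.

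**Figure D3:**
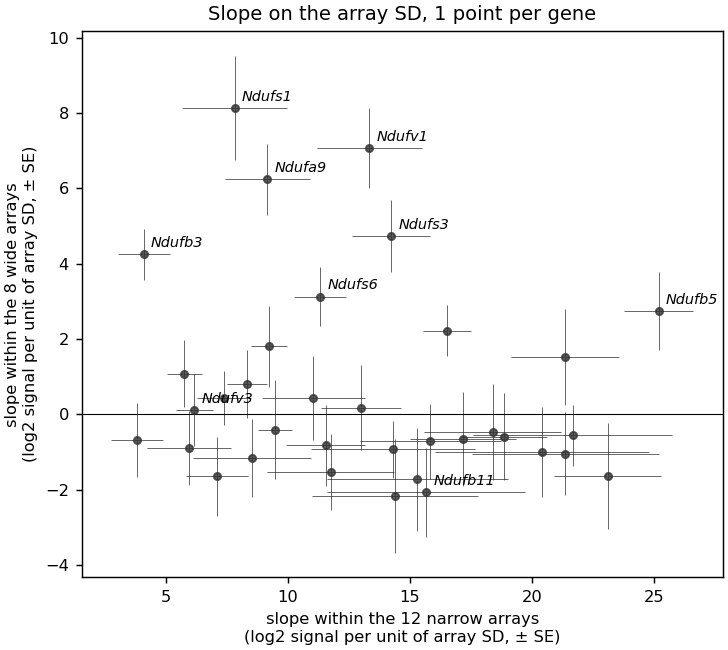
Slope of each of the 35 genes on the array SD within the 12 narrow arrays (horizontal axis) and within the 8 wide arrays (vertical axis), both in log2 signal per unit of array SD with the SE as bars. Slopes are above 0 for 35 of 35 genes on the horizontal axis and for 16 of 35 on the vertical one, where Ndufs1, Ndufv1, Ndufa9, Ndufs3, Ndufb3 and Ndufs6 stand highest.

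For 33 of 35 genes every wide array lay above every narrow one, which held for 10.8% of all clusters in that direction. Wide and narrow are set by the same signals, and this share was not counted for clusters of like signal. The median over the 2771 clusters of like signal was 8.82 on the wide and 7.35 on the narrow arrays, next to 10.56 and 8.28 for the 35 genes. The exceptions were Ndufv1 and Ndufs1, for which the sham mouse with an array SD of 1.19 (9.21 and 8.70) lay below the DOXO mouse with an array SD of 1.03 (9.42 and 8.85). Ndufb5 was at 11.01 ± 0.46 (SD, n = 8) on wide and at 7.15 ± 1.29 (SD, n = 12) on narrow arrays, and Ndufv3 at 8.52 ± 0.28 and 7.42 ± 0.32. Ranks were shifted as well. Ndufb5 had a mean percentile of 98.6 on the wide and of 55.8 on the narrow arrays, where it lay below the array median on 6 of 12. Ndufb3 moved from the 90.9th to the 52.3rd and Ndufa1, a small membrane-arm subunit, from the 92.8th to the 61.1st. The median change over the 35 genes was 3.60 percentile points, and 34 of 35 genes ranked lower on the narrow arrays. Ndufa7 of the Q module was the exception, at the 97.1st percentile on the wide and the 97.3rd on the narrow arrays.

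**Figure D4:**
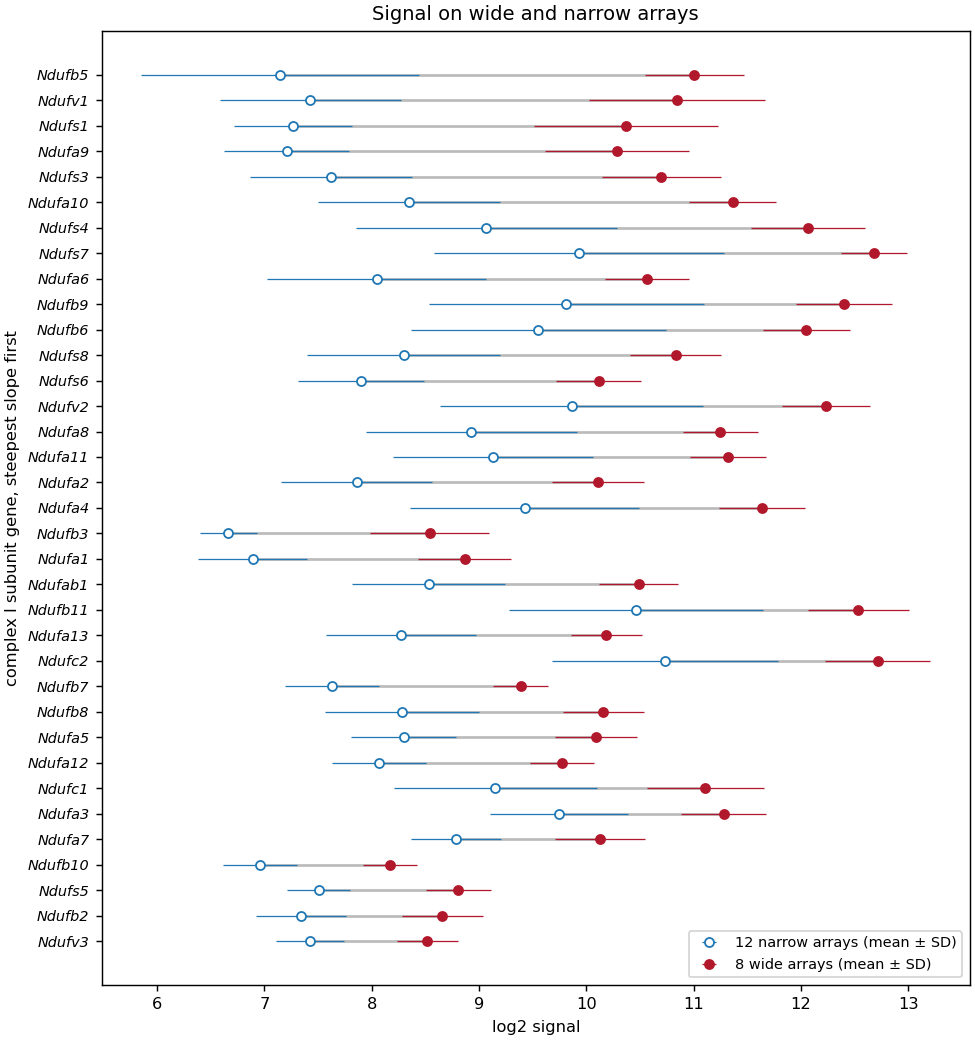
Mean log2 signal of each of the 35 genes on the 12 narrow (open points) and the 8 wide arrays (filled points), with SD bars and the steepest slope on top. The distance between the points is widest for Ndufb5, at 7.15 and 11.01, and narrowest for Ndufv3, at 7.42 and 8.52.

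DOXO versus sham addresses the effect of doxorubicin without FA. With the array SD as covariate, 0 of 35 genes passed an unadjusted p of 0.01 in limma, against 4.14% of all clusters, and 0 passed 0.05, against 12.7%. Adjusted p-values under 0.05 were reached by 0 of 35 genes and 0.17% of clusters. The median log2 difference of the 35 genes was -0.14, with 6 genes higher and 29 lower in DOXO. The median was 0.04 over all clusters and 0.07 over the 2771 clusters of like signal. All 9 genes of the distal membrane arm were lower (median -0.21), 8 of 9 of the proximal arm (-0.14), 4 of 7 of the Q module (-0.10) and 6 of 8 of the N module (-0.09). The lowest and the highest difference were -0.60 for Ndufc1 (95% interval -1.66 to 0.45) and 0.48 for Ndufv1 (-0.24 to 1.20), and both intervals hold 0. Ndufb2 differed by -0.40 ± 0.28 (SE, adjusted p = 0.582 in limma) and Ndufa2 of the N module by -0.49 ± 0.37 (adjusted p = 0.613). In the same comparison 6 of 12 neutrophil markers passed an unadjusted p of 0.01 upwards (median 0.23), against 3.14% of all clusters, and their part in the complex I values was not tested. The intervals of the core subunits were wide, from -1.66 to 1.06 for Ndufs7 and from -0.67 to 0.73 for Ndufs3. Their width depends on the fit. The median residual SD of the 35 genes was 0.59 in this fit and 0.33 with a spline of the array SD. Without the covariate the median log2 difference was -0.84 and all 35 genes were lower in DOXO. Then 0 of 35 passed an unadjusted p of 0.01 in limma, against 1.05% of clusters. Also without the covariate, the median was -0.04 within the wide arrays (3 sham, 2 DOXO) and 0.04 within the narrow arrays (1 sham, 4 DOXO). A natural spline of the array SD, chosen after the curve had been seen, gave -0.12, and 4 genes (Ndufa2, Ndufb2, Ndufs8 and Ndufs4, all lower in DOXO) passed an unadjusted p of 0.05 with it, against 14.8% of clusters. The median was above 0 without sham replicate 1 (0.07) and without DOXO replicate 5 (0.10), and it was 0.02 with the replicate number as a block.

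FA-sham versus sham addresses FA without doxorubicin, and here the array SD differed most between the groups. Ndufb11, a subunit of the distal membrane arm, had the lowest difference. It was at 13.24, 12.68, 12.66 and 11.10 in sham and at 8.07, 10.93, 9.02 and 11.86 in FA-sham. Of the FA-sham mice, 3 of 4 lay below all sham mice and the one with a wide array lay within their range. The difference was -1.21 ± 0.66 (SE, adjusted p = 0.679 in limma) with the covariate and -2.45 without it. The second cluster of Ndufb11 differed by -0.89 with the covariate, so the size depends on the cluster. Where on the genome each of these clusters lies was not checked. An exact two-sided permutation test of the uncorrected values gave p = 0.0571, where 4 against 4 mice allow no less than 0.0286. Ndufc1 of the proximal arm differed by -0.87 ± 0.60 (adjusted p = 0.753 in limma) and Ndufa3 by -0.53 ± 0.38 (adjusted p = 0.762). The highest difference was 0.50 ± 0.40 for Ndufs1.

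Over the list, the median difference of FA-sham from sham was -0.33, with 10 genes higher and 25 lower. The median was 0.07 over all clusters and 0.10 over the 2771 clusters of like signal. In limma 0 of 35 genes passed an unadjusted p of 0.01, against 1.83% of all clusters, and 0 passed 0.05, against 7.93%. Without the covariate all 35 genes were lower in FA-sham, with a median of -1.86. Then 1 gene, Ndufb11, passed 0.01 (background 4.35%) and 23 passed 0.05 (background 31.0%). With the spline Ndufb11 passed 0.01 again, at -1.16 (background 2.51%), with an adjusted p of 0.386, and 8 genes passed 0.05 (background 9.84%). Fitted without the covariate, the median was -0.68 within the wide arrays (3 sham, 1 FA-sham) and -0.71 within the narrow ones (1 sham, 3 FA-sham). Each of these values rests on 1 mouse on one side. With the covariate, the median without FA-sham replicate 4 was -0.64 and without sham replicate 1 -0.02. The array SD and the cardiomyocyte marker median moved with these differences, and their part in them was not tested.

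**Figure D5:**
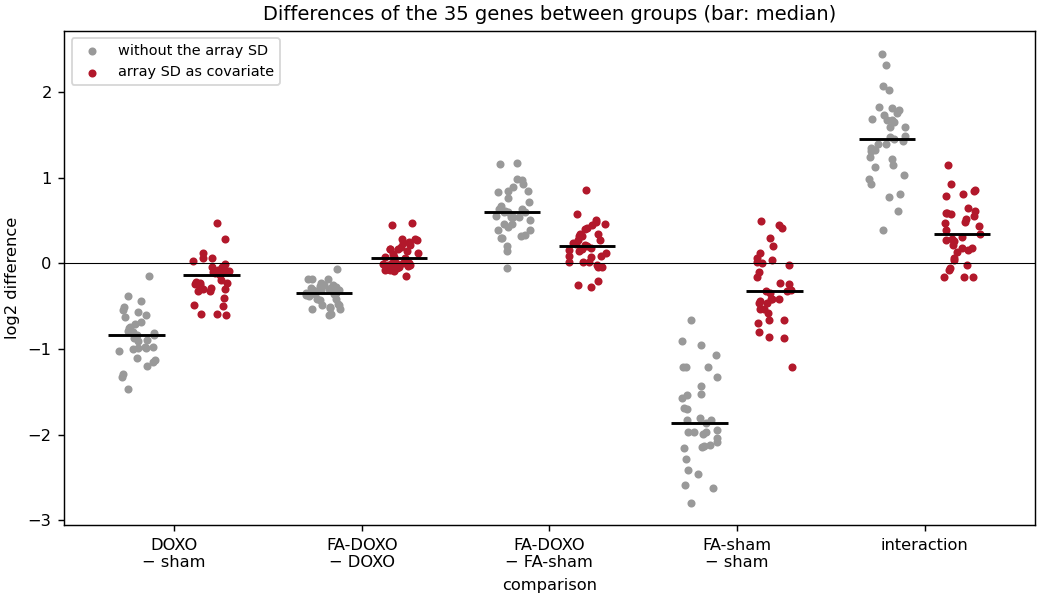
Log2 difference of each of the 35 genes in the 5 comparisons without (grey) and with the array SD as covariate (red), with a bar at the median. The medians move from -0.84 to -0.14 for DOXO versus sham, from -1.86 to -0.33 for FA-sham versus sham and from 1.45 to 0.34 for the interaction when the covariate is added.

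FA-DOXO versus DOXO addresses FA in mice given doxorubicin. The median difference was 0.06, with 23 genes higher and 12 lower, against 0.01 over all clusters and 0.12 over the 2771 clusters of like signal. In limma 0 of 35 genes passed an unadjusted p of 0.01, against 1.11% of all clusters, and 0 passed 0.05, against 5.86%. Ndufb3 came closest, at 0.24 ± 0.13 (SE, adjusted p = 0.839 in limma). It ran from 6.31 over a median of 7.07 to 8.76 in DOXO and from 6.41 over 6.76 to 8.87 in FA-DOXO, and the ranges overlapped almost fully. Ndufs1 differed by 0.45 ± 0.30 (adjusted p = 0.860 in limma) and Ndufs6 by 0.22 ± 0.22 (adjusted p = 0.900). The extremes were 0.47 for Ndufb5 (95% interval -0.61 to 1.54) and -0.15 for Ndufv2 (-1.27 to 0.98). The sign of the median depended on the fit. It was -0.34 without the covariate (0 of 35 genes past 0.01, background 0.158%) and -0.08 with the spline (0 of 35 genes past 0.05, background 6.56%). Again without the covariate, it was -0.34 within the wide arrays (2 against 2 mice) and -0.38 within the narrow ones (4 against 4 mice). All 35 genes were lower in FA-DOXO within the narrow arrays, where the array SD was not held. With the covariate, the median was below 0 without DOXO replicate 5 (-0.07), without DOXO replicate 6 (-0.002) and without FA-DOXO replicate 6 (-0.04).

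FA-DOXO versus FA-sham addresses doxorubicin in mice given FA. The median difference was 0.21, with 29 genes higher in FA-DOXO, and all 9 genes of the proximal membrane arm among them. It was -0.02 over all clusters, of which 43.9% were higher. Over the 2771 clusters of like signal it was 0.06, with 65.3% higher. In limma 0 of 35 genes passed an unadjusted p of 0.01, against 1.07% of all clusters, and 0 passed 0.05, against 4.92%. After adjustment 0 of 35 genes and 0.0259% of clusters passed 0.05. Ndufb11 differed most, by 0.85 ± 0.55 (SE), and Ndufv3 at -0.26 ± 0.17 and Ndufa3 at 0.42 ± 0.31 followed in the order of p, each with an adjusted p above 0.99 in limma. The lowest difference was -0.28 ± 0.47 for Ndufs8. Without the covariate the median was 0.60 and 0 of 35 genes passed 0.01 (background 0.268%). The median within the wide arrays was 0.28 (1 FA-sham, 2 FA-DOXO) and within the narrow ones 0.44 (3 FA-sham, 4 FA-DOXO), both without the covariate. With the spline it was 0.08 (1 gene past 0.05, Ndufv3, background 5.91%). Leaving out FA-sham replicate 1 gave -0.02 with the covariate. This comparison shares the FA-sham mice with FA-sham versus sham, and in both Ndufb11 had the difference farthest from 0.

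In the interaction, the DOXO minus sham difference is subtracted from the FA-DOXO minus FA-sham difference. Its median was 0.34, with 29 of 35 genes above 0. It was -0.05 over all clusters and 0.007 over the 2771 clusters of like signal. In limma 0 of 35 genes passed an unadjusted p of 0.01, against 1.78% of all clusters, and 0 passed 0.05, against 8.63%. In this comparison, in FA-sham versus sham and in FA-DOXO versus DOXO, 0% of clusters passed an adjusted p of 0.05. The smallest p belonged to Ndufb2, at 0.59 ± 0.40 (SE, adjusted p = 0.686 in limma), Ndufb11, at 1.15 ± 0.79, and Ndufa1, at 0.44 ± 0.32, and Ndufv3 was lowest at -0.16 ± 0.25. All 18 genes of the membrane arm were above 0, and of the core subunits 3 were above 0 (Ndufs7 at 0.81, Ndufs8 at 0.31 and Ndufv2 at 0.29) and 3 below (Ndufv1 at -0.16, Ndufs1 at -0.05 and Ndufs3 at -0.01). The median was 1.45 without the covariate (0 of 35 genes past 0.01, background 0.463%) and 0.14 with the spline (1 gene past 0.05, Ndufb2, background 9.69%). It was 0.27 within the wide and 0.31 within the narrow arrays, both without the covariate. With the covariate it was -0.005 without DOXO replicate 5. In none of the 4 comparisons of 2 groups did a complex I gene have groups that did not overlap, which was the case for 0.351% of all clusters in DOXO versus sham, 0.135% in FA-DOXO versus DOXO, 0.808% in FA-DOXO versus FA-sham and 4.81% in FA-sham versus sham.

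Ndufa4l2, a relative of Ndufa4, was the one gene analysed of 11 further complex I genes, and it had a slope on the array SD of 0.01 at a mean log2 signal of 6.43. The 18 assembly factors that were measured, which help to build the complex and are not part of it, had a median slope of 2.43, and 17 were above 0. In DOXO versus sham 1 of 18 passed an unadjusted p of 0.01 downwards, Ndufaf5 at -0.30 ± 0.09 (SE, adjusted p = 0.190 in limma), against 1% of all clusters in that direction, and Ndufaf6 came next at -0.24 ± 0.09 (adjusted p = 0.300). Both had mean signals near the array medians, at 6.38 and 6.33. In FA-sham versus sham 1 of 18 passed upwards, against 1.65% of all clusters. It was Nubpl, which delivers iron-sulfur clusters to complex I, at 0.39 ± 0.12 (adjusted p = 0.516 in limma).

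Of the 37 subunit genes of complexes II to V, all 37 rose with the array SD (median slope 5.53). In DOXO versus sham 1 of 37 passed downwards, Cox7a1, the heart and muscle form of a complex IV subunit, at -1.004 ± 0.33 (SE, adjusted p = 0.219 in limma), against 1% of all clusters in that direction. The median of the 37 was -0.15 there, next to -0.14 for complex I, and the medians were -0.31 and -0.33 in FA-sham versus sham. The 14 regulators of mitochondrial biogenesis had a median slope of 1.28. In DOXO versus sham 1 of 14 passed downwards, against the same 1% of clusters, and it was Tfb1m, a methyltransferase of mitochondrial ribosomal RNA, at -0.48 ± 0.15 (adjusted p = 0.190 in limma). Tfam, the mitochondrial transcription factor A, was next at -0.38 ± 0.14 (adjusted p = 0.276 in limma). In the interaction 1 of 14 passed upwards, against 0.368% of all clusters, and it was Tfam at 0.61 ± 0.21 (adjusted p = 0.538 in limma). The 16 cardiomyocyte markers had a median slope of 6.56, all 16 above 0, and medians of -0.10 in DOXO versus sham and of -0.20 in FA-sham versus sham. The part of cell makeup in the complex I differences was not tested.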

How the data were processed

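Left ventricular RNA of 20 mice was measured on 1 array each. The authors deposited log2 signals per transcript cluster, made with R 2.14.2 and Bioconductor packages, and their normalization is not given in the sources used here. Gene symbols came from the platform annotation, in which 21640 clusters have 1 symbol, 1321 several and 11799 none listed. The members and all gene lists were chosen with earlier results of these data known.

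From the deposited signals, limma 3.58.1 (R 4.3.3) fitted 1 mean per group and the array SD to all 34760 clusters, without filter or further normalization, with moderated two-sided tests, an unadjusted threshold of 0.01 as in the study and Benjamini-Hochberg adjustment at 0.05 over all clusters. The fit was tested on simulated data in which each signal followed the array SD in a straight line, so this check does not cover the curved relation seen here. The p-values measure the spread between these mice, and the number of arrays limits the precision. Alternatives left out the covariate, the low clusters or each mouse, or used quantile normalization, a trend or the replicate number as a block. Others took wide or narrow arrays alone, without the covariate for group differences. A spline with 2 degrees of freedom and slopes within wide and narrow arrays were chosen after seeing the data. Named were the 6 core subunits, Ndufa4, Ndufab1, the 3 smallest p-values and the extremes of each comparison, the highest and lowest signals, and the 3 steepest and 3 flattest slopes. Genes named for their ranks, their slopes within the wide arrays, their spans, second clusters or promoter letters were chosen after their values were seen. Of other lists, the genes with the smallest p were named. The mitochondrially encoded subunits were not analysed here. Figures were drawn with matplotlib 3.10.9.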

Additional observations from a re-analysis of the deposited data

Results flagged for a closer look

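In 15 of the 35 genes, sham replicate 4, the sham mouse with a narrow array, lay far below the other 3 sham mice by Dixon's test at the 95% level. Its log2 signals were Ndufa2 (8.13), Ndufa4 (9.84), Ndufa5 (8.39), Ndufa6 (8.22), Ndufa8 (9.38), Ndufa11 (9.29), Ndufa12 (8.14), Ndufa13 (8.59), Ndufab1 (8.84), Ndufb9 (10.44), Ndufs4 (9.45), Ndufs5 (7.64), Ndufs7 (10.58), Ndufs8 (8.87) and Ndufv2 (10.66), in the order of the genes. The other 3 sham mice lay close together in each of them, for example between 10.69 and 10.80 in Ndufa6, against 8.22. FA-sham replicate 4, the FA-sham mouse with a wide array, lay far above the other 3 in Ndufa9 (9.88), Ndufs1 (10.03) and Ndufv1 (10.27). The median of complex I minus that of complexes II to V was -0.84 in DOXO replicate 6, against -1.31 to -1.16 in the other 5 DOXO mice. In all, 19 of 148 groups of values were marked in this way, and chance alone marks about 1 in 20. The genes share the same arrays, so these marks are not independent of each other.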

How the results depend on the processing

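Each comparison kept its count of 0 genes past an unadjusted p of 0.01 in limma, except FA-sham versus sham, where 1 gene (Ndufb11) passed without the covariate and 1 with the spline. Without the covariate the median difference was -0.84 for DOXO versus sham, -1.86 for FA-sham versus sham and 1.45 for the interaction, and with quantile normalization and no covariate it was -1.04 for FA-sham versus sham. The median slope was 2.45 with the interquartile range in place of the array SD, 12.99 within the narrow and -0.46 within the wide arrays, where 6 genes passed. With 1 mouse left out in turn, the medians ran from -0.32 to 0.10 for DOXO versus sham, from -0.07 to 0.24 for FA-DOXO versus DOXO, from -0.02 to 0.46 for FA-DOXO versus FA-sham, from -0.64 to -0.02 for FA-sham versus sham and from -0.005 to 0.64 for the interaction, so that 4 of the 5 changed sign. The sign turned without DOXO replicate 5 in DOXO versus sham, FA-DOXO versus DOXO and the interaction, without sham replicate 1 in DOXO versus sham, without DOXO replicate 6 or FA-DOXO replicate 6 in FA-DOXO versus DOXO, and without FA-sham replicate 1 in FA-DOXO versus FA-sham. The slope ran from 4.43 to 5.32. Counts stayed at 0, and at 35 for the slope. The cause of these shifts was not tested.

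The labels do not say that a replicate number marks a shared litter, batch or day, and the correlations do not settle a pairing. Of 26 pairs of arrays with the same number, 12 had a correlation over 0.1 after removal of group means, in a range from -0.86 to 0.84 (other numbers 66 of 122). With the array SD removed too, it was 14 of 26, with a median of 0.12, against 46 of 122 and -0.02 for other numbers. In a fit that takes replicate numbers as blocks, the medians were 0.02, 0.11, 0.26, -0.15 and 0.16 in the order of the report (DOXO versus sham, FA-DOXO versus DOXO, FA-DOXO versus FA-sham, FA-sham versus sham, interaction), so that DOXO versus sham changed sign, the counts 0, and the median slope 5.45. Among values of single named genes, 676 kept direction and side of the threshold. Another 36 changed direction, with neither fit past the threshold, and 2, both of Ndufb11 in FA-sham versus sham, passed the threshold.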
